A study of Mus musculus with 9 samples.

Results

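Interferon-induced genes were followed as a set of 45 genes through dexamethasone treatment and a turmeric diet in mouse muscle. The genes were chosen by name as members of a pathway, with no measured value in the rule, although earlier results of these data were known by then. Each was read from 1 probe set, the brightest one annotated to that gene alone. Of the 45 genes, 43 had such a probe set, among 18193 genes measured in this way. A further filter kept genes whose mean on the log2 scale reached that of a signal of 50 in at least 1 group, and 40 of the 43 passed, of 13662 genes tested.

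Signal was measured on 9 Affymetrix arrays of the tibialis anterior muscle, 1 array per mouse and 3 mice per group, from male C57BL/6J mice 15 weeks old at the start of the diets. Control mice received saline and an AIN93-based diet. DEX mice received the same diet and 5 mg per kg body weight of dexamethasone, a synthetic glucocorticoid, into the abdomen each day for a week. DEX + TE mice received the same injections and the diet with 2% turmeric extract, which the protocol started before the injections although the sample titles call the extract a later treatment. There was no group with the extract and without dexamethasone, and the mice put on arrays were picked for body and muscle weights near their group average, so the spread between arrays may understate the spread between mice.

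Type I interferons bind the Ifnar1 and Ifnar2 receptor and activate a complex that holds Stat2 and Irf9 and binds the interferon-stimulated response element (ISRE) in front of antiviral genes. Interferon gamma acts through the receptor chains Ifngr1 and Ifngr2 and, by way of the gamma-activated site (GAS), induces GTPases of the Irg and Gbp families, Irf1 and antigen presentation genes. Many of these genes have a low constant level in healthy tissue, and glucocorticoids are known to dampen interferon responses in immune cells.

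The letters of these elements were searched in windows of RefSeq (assembly GRCm38.p6) that run from 250 bases before to 50 bases after each annotated gene start, on both strands. Of the 45 genes, 35 had a window. The ISRE core (GAAA, any 2 bases, GAAA) was present in 19 of the 35 (54.3%), against 3.63% of the 14452 measured genes with a window. The GAS core TTCNNNGAA was present in 11 (31.4%, against 8.57%). The core of the glucocorticoid response element, ACANNNTGT, was present in 3 (8.57%, against 6.1%). These are matches of letters and not measured binding sites, and a match on one strand may overlap another. By role, ISRE letters were in 6 of 7 inducible GTPases, 2 of 2 nucleic acid sensors, 2 of 3 IFIT genes and 0 of 2 receptors. The windows printed next belong to the members with ISRE letters whose 3 DEX arrays all lay below the 3 control arrays, as given further on.

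They were Gbp3 at chr3:142559794-142560093, Gbp7 at chr3:142530086-142530385, Irgm2 at chr11:58214727-58215026 and B2m at chr2:122147437-122147736, all on the plus strand, and Bst2 at chr8:71537423-71537722 and Ifitm3 at chr7:141010695-141010994 on the minus strand. Each is written 5′ to 3′ along its gene, and capitals mark ISRE and GAS letters. An ISRE on the opposite strand reads TTTC, any 2 bases, TTTC.
Gbp3: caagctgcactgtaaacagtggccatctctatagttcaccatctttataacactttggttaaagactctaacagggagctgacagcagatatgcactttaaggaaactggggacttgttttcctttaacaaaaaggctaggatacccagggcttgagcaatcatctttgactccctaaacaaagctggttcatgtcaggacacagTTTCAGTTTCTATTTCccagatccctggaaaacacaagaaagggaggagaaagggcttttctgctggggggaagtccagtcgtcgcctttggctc
Gbp7: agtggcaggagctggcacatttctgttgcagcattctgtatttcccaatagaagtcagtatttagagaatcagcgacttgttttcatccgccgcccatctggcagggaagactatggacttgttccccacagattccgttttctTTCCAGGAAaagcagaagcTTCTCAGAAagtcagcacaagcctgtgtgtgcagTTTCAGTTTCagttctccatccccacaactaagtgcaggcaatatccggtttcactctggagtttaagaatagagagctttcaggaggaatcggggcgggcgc
Irgm2: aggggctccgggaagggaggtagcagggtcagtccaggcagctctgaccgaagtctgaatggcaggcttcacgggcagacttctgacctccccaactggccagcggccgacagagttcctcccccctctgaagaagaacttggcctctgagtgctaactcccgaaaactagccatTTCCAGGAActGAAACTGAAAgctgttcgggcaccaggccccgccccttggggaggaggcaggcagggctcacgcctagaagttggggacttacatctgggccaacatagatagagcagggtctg
Bst2: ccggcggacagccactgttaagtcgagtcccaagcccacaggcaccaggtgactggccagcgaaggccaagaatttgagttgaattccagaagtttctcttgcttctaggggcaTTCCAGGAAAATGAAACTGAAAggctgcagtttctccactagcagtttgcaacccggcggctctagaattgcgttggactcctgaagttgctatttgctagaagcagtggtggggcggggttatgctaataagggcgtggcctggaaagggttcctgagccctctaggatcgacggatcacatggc
B2m: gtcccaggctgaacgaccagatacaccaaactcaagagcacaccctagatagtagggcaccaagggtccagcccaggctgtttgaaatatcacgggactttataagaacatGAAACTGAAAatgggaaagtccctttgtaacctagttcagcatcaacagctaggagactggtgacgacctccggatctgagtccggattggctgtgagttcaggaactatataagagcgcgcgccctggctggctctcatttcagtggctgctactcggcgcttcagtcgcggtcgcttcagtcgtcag
Ifitm3: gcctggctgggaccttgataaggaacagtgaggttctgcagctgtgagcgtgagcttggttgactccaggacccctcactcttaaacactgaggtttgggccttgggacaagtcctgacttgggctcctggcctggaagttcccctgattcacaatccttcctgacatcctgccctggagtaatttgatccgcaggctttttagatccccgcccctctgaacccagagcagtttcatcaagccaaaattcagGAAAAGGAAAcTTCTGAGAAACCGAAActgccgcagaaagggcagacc

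Irgm2, Bst2 and Gbp7 all carried the GAS letters TTCCAGGAA and the ISRE letters GAAACTGAAA, which lay just after the GAS in Irgm2 and Bst2 and on the opposite strand in Gbp7. That ISRE form was the most frequent one, with 10 of the 29 matches, and it was found in 10 genes, Gbp3 and B2m among them. Gbp3 and Bst2 each had 2 overlapping ISRE matches, and Ifitm3 had 2 ISRE matches with a GAS match between them that overlapped the latter. Of the 29 ISRE matches in the set, 24 began before the annotated start.

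**Figure D1:**
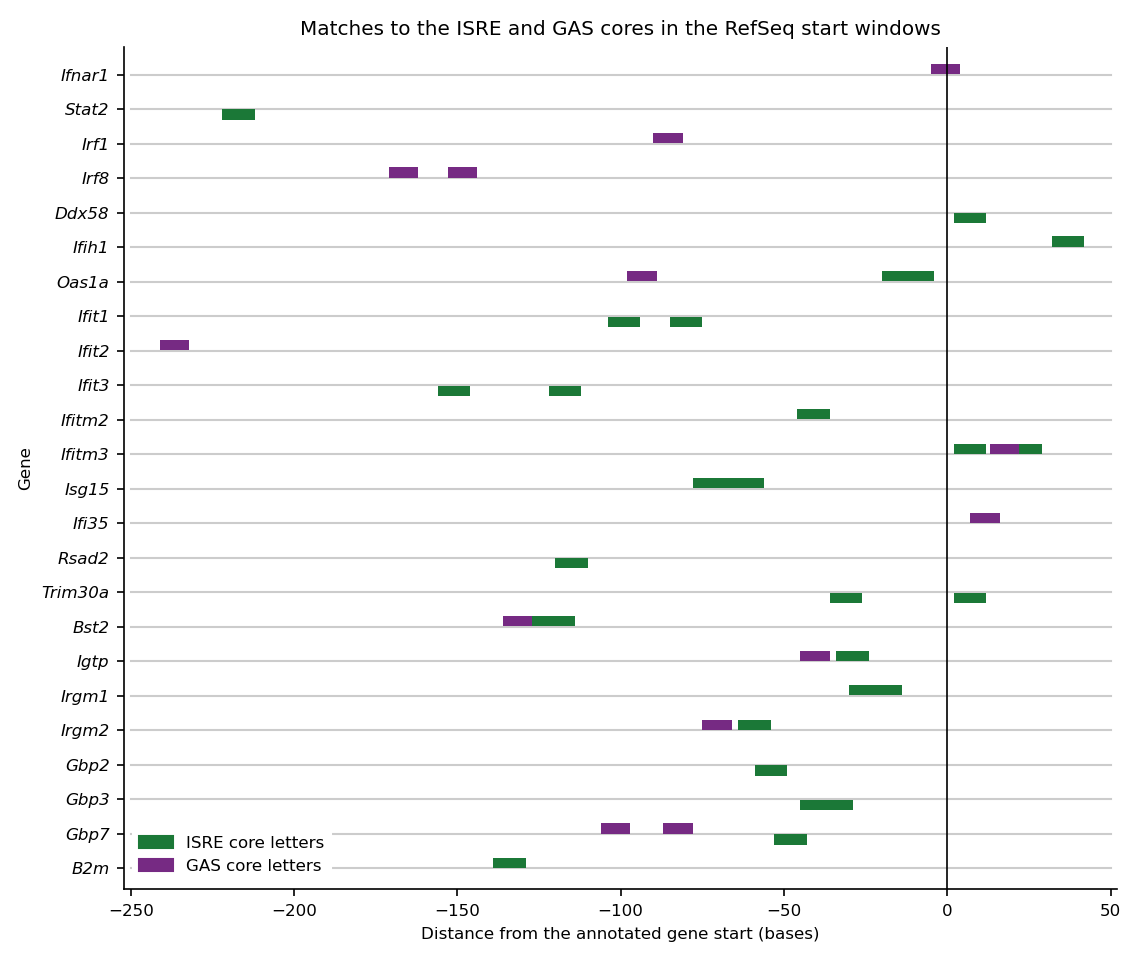
Positions of ISRE (green) and GAS (purple) letters in the RefSeq start windows of the members that hold either. The horizontal axis is the distance from the annotated gene start in bases, and the alternative starts of Trim30a share 1 line. ISRE marks above a line are on the strand of the gene and those below it on the opposite strand. The GAS core reads the same on both strands, and its marks are all drawn above the line. Of the 29 ISRE matches, 24 begin before the start.

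The median signals of the 9 arrays ran from 71.3 to 95.0, with 71.3 to 77.7 in DEX and 84.7 to 95.0 in DEX + TE, and no pair was a duplicate (correlations from 0.896 to 0.914). All 12 muscle fiber markers were at 50 or more on every array. Of 10 glucocorticoid targets, 3 were higher and 7 lower in DEX by value (median -0.47), and limma called 1 higher and 2 lower (against 0.278% and 0.322% of all genes). Fkbp5, a chaperone partner of the glucocorticoid receptor, was higher in DEX than in control (log2 fold change 2.26, limma adjusted p = 0.0134), although its adjusted p was 0.0529 without control 2, 0.0536 without control 3 and 0.106 with only the 6 arrays compared. The lower ones were Nfkbia (-1.28, adjusted p = 0.0324) and Sgk1 (-0.72, adjusted p = 0.0416). Leaving out 1 array ended the call of Nfkbia except without DEX 3 (adjusted p up to 0.108) and that of Sgk1 in every case (up to 0.137).

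The first comparison asked how dexamethasone moved the set. By value 36 of the 40 genes were lower in DEX than in control (90.0%, against 54.5% of all genes tested) and 4 higher (against 45.5%), with a median log2 fold change of -0.21 against -0.03 for all genes. Apart from Oas1a, which was below 50 on every DEX array, the deepest difference was in the inducible GTPase Iigp1, 2.68-fold lower. No single gene passed the threshold, which asked for an adjusted p under 0.05 and a log2 fold change of 0.6 or more in size. Limma called 0 members higher and 0 lower, where it called 0.278% and 0.322% of all genes, and Rank Product called 0 in both directions, where it called 0.0878% higher and 0.0586% lower. With p under 0.05 before adjustment, 8 members were lower (20.0%, against 9.15% of all genes) and 0 were higher (against 6.16%). The lowest adjusted p was 0.119, for Gbp6.

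The count at an unadjusted p under 0.05 depended on single arrays. It was 14 of 41 without control 1 (34.1%, against 8.72% of all genes in the same fit) and 3 of 41 without control 2 (7.32%, against 7.59%). It was 5 of 40 without control 3 (12.5%, against 6.27%), 4 without DEX 2 (against 7.44%) and 5 without DEX 3 (against 8.49%). With arrays centred on their medians it was 3 of 40 (7.5%, against 4.61%), and the median member went from -0.21 to -0.10 and that of all genes from -0.03 to 0.07. The median kept its sign with any 1 array left out, from -0.36 without control 1 to -0.14 without DEX 2, and 28 to 39 members were lower by value.

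Inducible GTPases are cell-autonomous defence proteins that gather on the vacuoles of intracellular parasites and bacteria. All 9 were tested, 8 were lower in DEX by value, and their median was -0.46. Iigp1, an Irg GTPase, had signals of 436, 938 and 826 in control, 324, 186 and 291 in DEX and 283, 414 and 306 in DEX + TE. All 3 DEX arrays lay below all 3 control arrays, and so did all 3 DEX + TE arrays. The difference of DEX from control was -1.42 on the log2 scale (SE 0.34, 95% interval -2.22 to -0.63), with a limma adjusted p of 0.133. No window was used for Iigp1.

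Gbp3, a guanylate-binding protein whose window is printed above, had 150.4, 244 and 316 in control, 124, 109 and 123 in DEX and 151, 186 and 221 in DEX + TE. The DEX arrays were the lowest 3 of the 9, and DEX + TE reached into the range of control. Its DEX difference was -0.93 (SE 0.27, adjusted p = 0.192). Gbp6, another guanylate-binding protein, had 445, 396 and 582 in control, 309, 289 and 257 in DEX and 353, 326 and 293 in DEX + TE. Both dexamethasone groups lay wholly below control, by -0.72 (SE 0.16) in DEX. On the other probe set of Gbp6 only DEX did.

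Irgm2, a regulatory Irg protein, had 358, 503 and 420.4 in control, 286, 319 and 319 in DEX and 294, 347 and 209.8 in DEX + TE. Here too both dexamethasone groups lay below control, and the difference in DEX was -0.46 (adjusted p = 0.368). Gbp7 had 460.1, 523 and 536 in control, 443, 256 and 380.0 in DEX and 548, 561 and 298 in DEX + TE. Its DEX arrays lay below control, by -0.53, whereas the DEX + TE arrays fell on both sides. On the other probe set of Gbp7 the DEX arrays overlapped with control, with a difference of -0.49. The members Igtp, Irgm1 and Gbp2 had differences of -0.17, -0.26 and -0.28 with overlapping arrays. Gbp2 was read there by a probe set whose suffix marks possible cross-hybridization, and its other probe set had 212, 378 and 359 in control, 188, 197 and 197 in DEX and 233, 327 and 229 in DEX + TE. On that one all DEX arrays lay below both other groups, by -0.66 from control (adjusted p = 0.281). Ifi47 was the exception, with 85.5, 175 and 169 in control and 136, 144 and 131 in DEX, a log2 difference of 0.01 in which control 1 was the lowest of the 9 arrays.

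**Figure D2:**
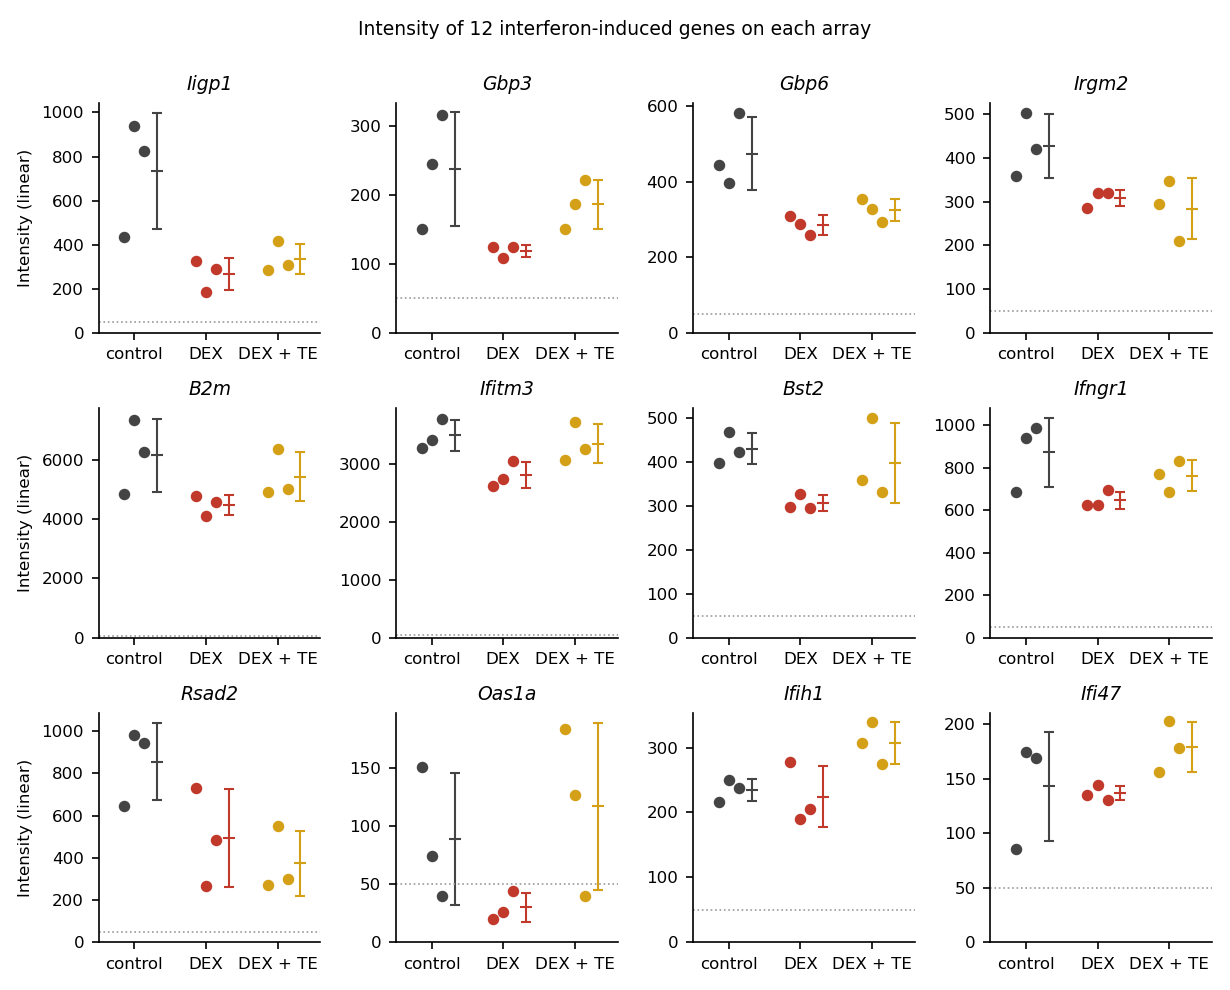
Linear signal of 12 interferon-induced genes on each of the 9 arrays. Points are single arrays of control (grey), DEX (red) and DEX + TE (yellow), in replicate order, bars are the mean ± SD of 3 arrays, and the dotted line is the minimum of 50. The 3 DEX arrays of Iigp1, Gbp3, Gbp6, Irgm2, B2m, Ifitm3 and Bst2 lie below all 3 control arrays, while those of the other 5 genes overlap with control.

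Antigen presentation genes bring peptides to class I molecules at the cell surface. B2m, the light chain shared by class I molecules, had 4869, 7349.5 and 6277 in control, 4792, 4124 and 4570.2 in DEX and 4911, 6387 and 5026 in DEX + TE. The highest DEX array lay just below the lowest control array, and DEX + TE lay wholly above DEX. The DEX difference was -0.44 (95% interval -0.86 to -0.02, adjusted p = 0.328). On the other probe set of B2m the arrays of all groups overlapped, with a DEX difference of -0.34. Tap1 and Tap2, which form the peptide transporter, had differences of -0.50 and -0.18. Tap1 was dim, with 35.2, 82.5 and 124 in control, 54.3, 39.0 and 59.8 in DEX and 29.8, 41.5 and 50.5 in DEX + TE, and its groups overlapped throughout.

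Of the receptors, Ifngr1, the ligand-binding chain for interferon gamma, had 687, 941 and 986 in control, 622, 625 and 693 in DEX and 771, 684 and 832 in DEX + TE. Control 2 and control 3 lay above every DEX array, and control 1 lay within DEX. The difference was -0.41 (SE 0.16, adjusted p = 0.301). Ifnar1, a chain of the type I receptor, had 209, 326 and 279 in control, 209, 292 and 256 in DEX and 276, 265 and 283 in DEX + TE. These ranges overlapped, and the DEX difference of -0.10 had an interval of -0.54 to 0.35.

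The transcription factors had smaller differences, with a median of -0.18. Irf1, an early factor induced by interferon gamma, had 560.5, 681 and 741 in control, 523, 521 and 706 in DEX and 527, 643 and 607 in DEX + TE, a DEX difference of -0.19. Irf9, the DNA-binding part of the type I complex, had 123, 127 and 168, 135, 102 and 150.3 and 115, 174 and 148 in the same order of groups (-0.11). Its partner Stat2 was near the minimum, with 88.4, 48.7 and 84.4 in control, 42.1, 52.9 and 63.5 in DEX and 104, 29.6 and 56.2 in DEX + TE (-0.45). The arrays of all of these genes overlapped between groups, and the lowest adjusted p among the 5 factors was 0.66, for Irf1. Irf7, which amplifies the type I response, had 186, 102 and 169 in control, 164, 81.9 and 165 in DEX and 204, 173 and 153 in DEX + TE (-0.18). Irf8, a factor of macrophages and dendritic cells, had 159.8, 147 and 268 in control, 228, 169 and 171 in DEX and 133, 196 and 105 in DEX + TE (0.02). For these factors also the groups overlapped on the probe sets used. The other probe set of Irf8 had a DEX difference of 0.36, with overlapping arrays.

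Among the sensors of foreign RNA, Ddx58 (RIG-I), Ifih1 (MDA5) and Dhx58 (LGP2) had DEX differences of -0.19, -0.08 and -0.53. Dhx58 had 47.1, 39.4 and 81.6 in control, 51.2, 42.3 and 23.2 in DEX and 86.5, 118 and 33.4 in DEX + TE, and fell below 50 on 5 of the 9 arrays. Zbp1, a sensor of Z-form nucleic acid, was not tested because no group mean reached that of 50 on the log2 scale, although DEX + TE 1 had 124 and control 3 had 107. A dimmer probe set of Zbp1, which passed the filter, had 95.8, 73.2 and 36.5 in control, 6.36, 21.3 and 33.4 in DEX and 6.15, 10.4 and 55.5 in DEX + TE. Its DEX arrays lay below control, which was at least 1.27-fold higher than DEX set at 50 (measured difference -1.94, adjusted p = 0.395).

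The OAS family, which makes or relates to the activators of RNase L, had no common direction in DEX (median 0.17). Oas1a had 151, 74.3 and 40.2 in control, 20.2, 26.1 and 44.1 in DEX and 183, 127 and 40.2 in DEX + TE. All DEX arrays were below 50, and 1 array in each of the other groups fell among them, so that control was at least 1.53-fold higher than DEX when DEX is set at 50 (measured difference -1.43, adjusted p = 0.392). Oas2 had 68.3, 196 and 51.6 in control, 165, 62.3 and 168 in DEX and 154, 90.5 and 149 in DEX + TE (0.44). Oasl1 had 28.0, 42.4 and 95.1 in control, 109, 92.5 and 39.2 in DEX and 108, 111 and 26.9 in DEX + TE (0.60), and Oas2 and Oasl1 were the members with the highest DEX values relative to control. The arrays of both overlapped between groups. Oasl2 had 22.5, 47.0 and 11.7 in control, 60.0, 11.5 and 14.5 in DEX and 37.3, 74.6 and 50.8 in DEX + TE, with all control arrays below 50.

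IFIT proteins bind foreign RNA ends or translation factors. Ifit3 had 274, 302 and 413 in control, 296, 138 and 153 in DEX and 174, 434 and 222 in DEX + TE (-0.82, adjusted p = 0.418). DEX 2 and DEX 3 were the lowest of the 9 arrays, and DEX 1 lay within control. Ifit1 had 55.3, 128 and 137, 158, 71.0 and 54.0 and 95.6, 189 and 135 (-0.22), and Ifit2 had 182, 186 and 286, 319.8, 146 and 181 and 185, 253 and 107 (-0.06), each in the order control, DEX and DEX + TE. In both, DEX 1 was above every control array and the other DEX arrays were not.

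IFITM proteins sit in membranes and hinder the entry of viruses. Ifitm3 had 3273, 3406 and 3778 in control, 2622, 2733 and 3047 in DEX and 3057, 3714 and 3260.4 in DEX + TE. The 3 DEX arrays were the lowest of the 9, with a difference of -0.32 (SE 0.12, adjusted p = 0.291). Ifitm1 had a difference of -0.59 (adjusted p = 0.308) and Ifitm2 one of -0.09.

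Of the other antiviral genes, 8 were tested and each had a lower value in DEX (median -0.11). Rsad2 (viperin), an enzyme that makes a chain-terminating nucleotide, had 646, 979 and 941 in control, 728, 265 and 483 in DEX and 271, 552 and 302 in DEX + TE. DEX 1 lay within control and the other 5 dexamethasone arrays lay below it (-0.89, 95% interval -1.87 to 0.09, adjusted p = 0.388). Bst2 (tetherin), which holds budding virus at the cell surface, had 399, 469 and 423 in control, 297, 326 and 296 in DEX and 359, 501 and 331 in DEX + TE. The DEX arrays of Bst2 were the lowest 3 of the 9, by -0.49 (SE 0.17, adjusted p = 0.248). Ifi35 (-0.04), the ubiquitin ligases Trim25 (-0.11) and Trim30a (-0.0015), Xaf1 (-0.11), Rtp4 (-0.07) and the ADP-ribosyltransferase Parp14 (-0.55) had overlapping arrays. Other probe sets of some of these genes differed. That of Trim30a had all DEX arrays below control (-0.56, limma adjusted p = 0.456). Those of Trim25 had -0.43 and 0.25 and that of Xaf1 had 1.14, with overlapping arrays. Ifi35 had 1422, 1334 and 1683 in control, 1671, 1201 and 1459.8 in DEX and 1451, 1616 and 1555 in DEX + TE. Trim30a had 164, 218 and 341 in control, 274, 225 and 197 in DEX and 189, 316 and 236 in DEX + TE.

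Mx1 and Mx2, GTPases that trap viral particles, were not tested. Mx1 reached 50 on 2 of the 9 arrays, both of control, and Mx2 on none. Isg15, a ubiquitin-like modifier, was read only by a probe set shared with Gm9706, with 179, 159 and 139 in control, 246, 131 and 100.5 in DEX and 128, 275 and 124 in DEX + TE, and these ranges overlapped. Ifi44 was not analysed here.

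Over the set, 8 members had all DEX arrays below all control arrays and 0 had them all above, 20.0% against 13.6% of all genes and 0 against 9.66%. They were Ifitm3, Bst2, Irgm2, Iigp1, Gbp3, Gbp6, Gbp7 and B2m, so that 5 of the 8 were GTPases. An exact two-sided permutation test of 3 against 3 arrays cannot go below p = 0.1, which is its value for each of them. The other probe sets of B2m and Gbp7 did not repeat this, as their DEX arrays overlapped with control (-0.34 and -0.49). Those of Iigp1 and Gbp6 also had all DEX arrays below control (-1.69 and -0.54). The 18 tested members with ISRE letters were all lower in DEX by value, with a median of -0.38 and 6 of them not overlapping with control. The 15 tested members with a window and no ISRE letters had 12 lower, a median of -0.11 and 0 not overlapping. This split was made after the values were known, the groups of genes differ in brightness and role, and the difference between them was not tested.

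**Figure D3:**
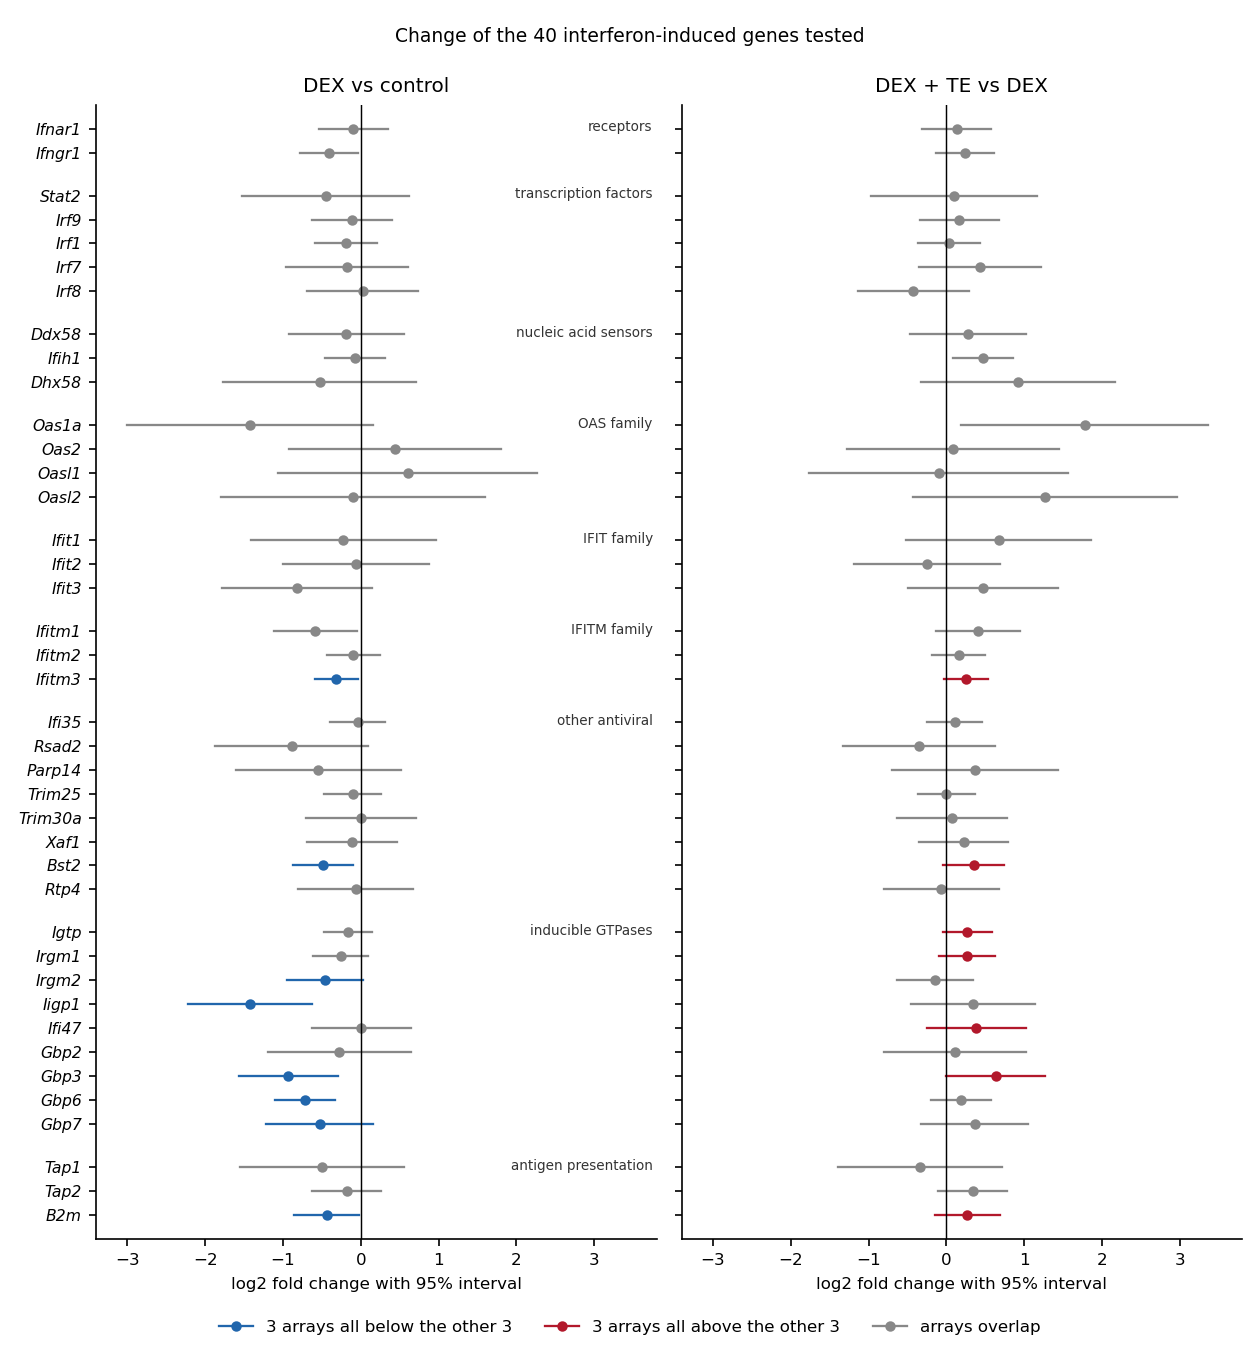
Log2 fold change of the 40 members tested, in order of role, for DEX against control (left) and DEX + TE against DEX (right). Points are limma estimates and lines their 95% intervals; blue marks members whose 3 arrays all lie below the other 3, red those all above. On the left 8 members are blue and 0 red, and on the right 0 are blue and 7 red.

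Single arrays also stood apart within a group. Relative to the mean of control, the median member was at -0.23, 0.07 and 0.17 in control 1 to 3, at -0.18, -0.43 and -0.23 in DEX and at -0.19, 0.15 and -0.10 in DEX + TE. Control 1 had 35 of the 40 members below the control mean and DEX 2 had 36, so that the lowest control array lay within the range of DEX. The same medians over all genes tested ran from -0.03 to 0.05. For the GTPases alone the medians were -0.31, 0.15 and 0.16 in control, -0.24, -0.41 and -0.41 in DEX and -0.41, -0.0003 and -0.43 in DEX + TE.

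**Figure D4:**
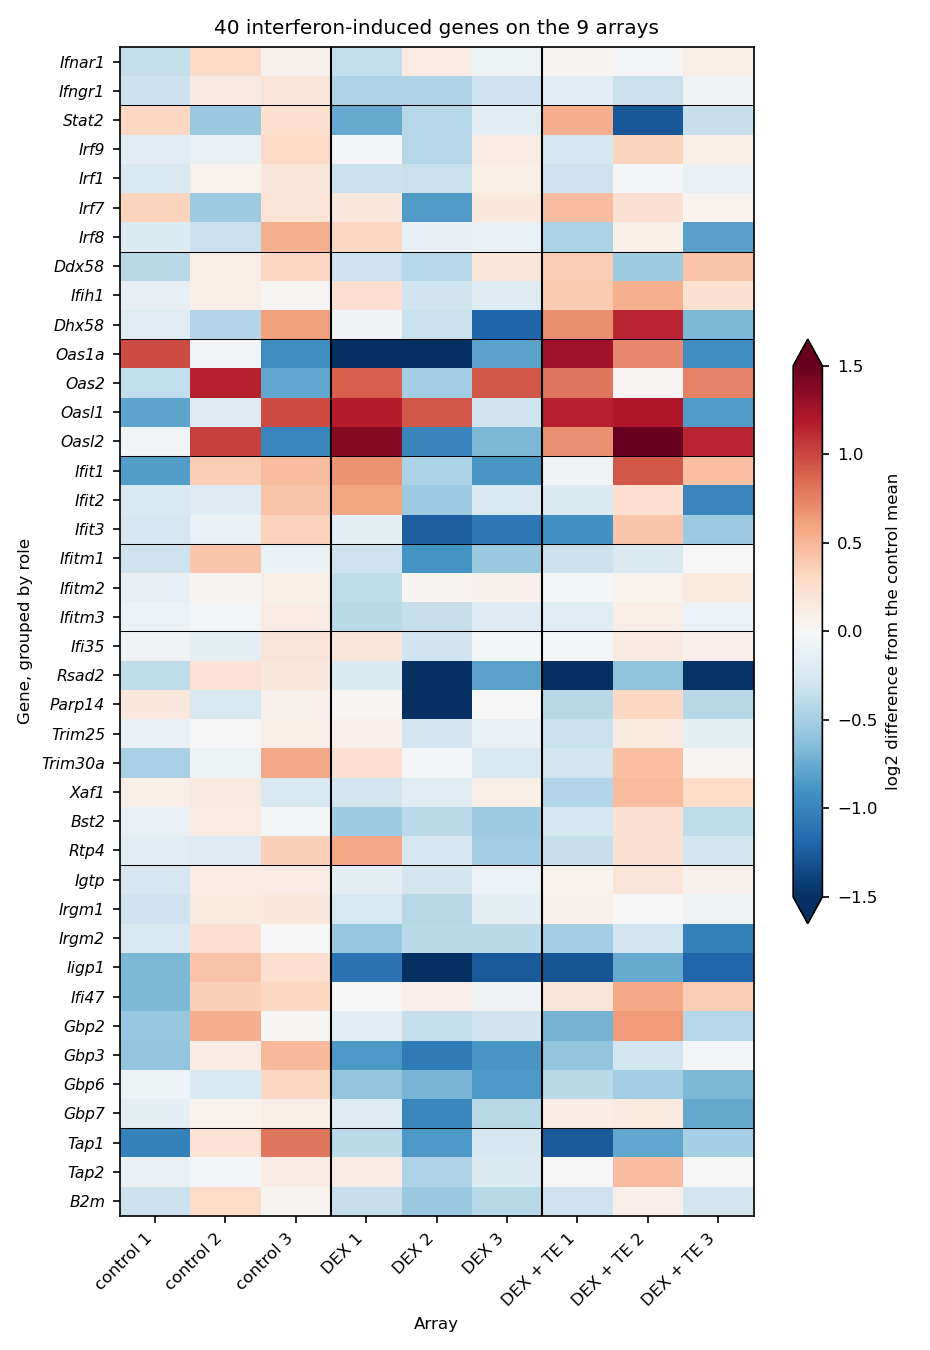
Log2 difference of each of the 40 members tested from its control mean, on each of the 9 arrays. Rows are genes grouped by role, columns are arrays, and red is above and blue below the control mean, with the colors ending at 1.5. Control 1 and DEX 2 have 35 and 36 of the 40 members below the control mean, and Iigp1, Gbp6 and Irgm2 are blue on all 6 dexamethasone arrays.

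The second comparison asked how the turmeric diet moved the set in dexamethasone-treated mice. By value 33 of the 40 members were higher in DEX + TE than in DEX (82.5%, against 57.4% of all genes) and 7 lower (17.5%, against 42.6%), with a median log2 fold change of 0.24 against 0.04. Limma called 0 higher and 0 lower, where it called 0.0% and 0.00732% of all genes, and Rank Product called 0 in both directions (0.0732% and 0.0146% of all genes). At an unadjusted p under 0.05 there were 2 higher, Ifih1 and Oas1a (5.0%, against 5.96%), and 0 lower (against 1.49%), a share no larger than that of all genes. The same 3 DEX arrays enter this comparison and the first one, so a low DEX array pushes both.

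The number of members above 0 moved with the scaling of the arrays. Centring shifts all genes of an array alike. With every array centred on its median, which is higher in DEX + TE than in DEX, 20 of 40 were higher (25.5% of all genes), and the median member was at -0.01 and that of all genes at -0.22. With quantile normalization 28 of 40 were higher (50.3% of all genes), with a median of 0.20. The median member lay 0.21 above the median gene as deposited, 0.21 with centring and 0.20 with quantile normalization. The ratio of the 3′ to the 5′ actin control probe sets, a measure of RNA integrity and labelling, was also higher in DEX + TE (log2 0.38 to 0.54) than in control (0.25 to 0.33), with DEX from 0.10 to 0.43. The same ratio for Gapdh overlapped between groups, with log2 -0.38 to -0.32 in control, -0.38 to -0.30 in DEX and -0.35 to -0.30 in DEX + TE. The part of these ratios in the result was not tested. Without 1 array, the count at an unadjusted p under 0.05 ran from 0, without DEX 2 or DEX + TE 2 (5.22% and 4.83% of all genes), to 6 of 41, without control 1 (14.6%, against 6.3%). It was 5 without DEX + TE 3 (12.2%, against 4.01%) and 3 without DEX 1 or control 3 (7.5% each, against 5.32% and 5.79%). Without DEX 3 it was 1 (2.5%, against 6.26%).

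Ifih1 had 216, 250.1 and 238 in control, 278, 190.4 and 205 in DEX and 307, 339 and 274 in DEX + TE. The DEX + TE arrays lay above control, and DEX 1 reached just into them. The difference from DEX was 0.47 (SE 0.17, 95% interval 0.08 to 0.85), with an adjusted p of 0.581, the lowest of the set. For Oas1a, with values given above, DEX + TE was at least 1.95-fold above DEX set at 50 (measured difference 1.78, adjusted p = 0.602), and DEX + TE 3 lay among the DEX arrays. Oasl2 and Dhx58 had differences of 1.27 and 0.92, both with arrays below 50 in each group compared.

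In 7 members the DEX + TE arrays all lay above the DEX arrays (17.5%, against 9.73% of all genes), and in 0 below (against 5.27%). They were Ifitm3 (0.25), Bst2 (0.35), B2m (0.27) and Gbp3 (0.63), which also lay lower in DEX than in control, and Igtp (0.27), Irgm1 (0.27) and Ifi47 (0.38). On the other probe set of B2m the DEX + TE and DEX arrays overlapped (0.15). Other probe sets of Ddx58 (-0.73, below 50 in DEX + TE) and Trim25 (-0.06) had all DEX + TE arrays below DEX. That of Gbp2 (0.42) had them all above. Igtp had 516, 671 and 669 in control, 559, 507 and 576 in DEX and 637, 705 and 639.9 in DEX + TE, and Irgm1 had 608, 839 and 843, 641, 567 and 687 and 791, 755 and 727. In both, control 1 lay among the DEX arrays. Members with a lower value in DEX + TE than in DEX were Irf8 (-0.43), Rsad2 (-0.35), Tap1 (-0.34), Ifit2 (-0.25), Irgm2 (-0.15), Oasl1 (-0.10) and Rtp4 (-0.06), all with overlapping arrays. The other probe set of Irf8 had the opposite sign (0.25), and those of Rsad2 had 0.12 and -0.66, also with overlapping arrays.

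The third comparison set DEX + TE against control, with the arrays of both groups already used above. By value 21 members were lower (52.5%, against 46.6% of all genes) and 19 higher (47.5%, against 53.4%), with a median of -0.08 against 0.02 for all genes. Limma called 0 in either direction (0.278% of all genes higher and 0.176% lower), and so did Rank Product (0.117% and 0.124%). At an unadjusted p under 0.05, 4 of 40 were lower (against 6.78% of all genes) and 0 higher (against 7.64%). The 4 were also those whose DEX + TE arrays all lay below control (against 12.3% of all genes), namely Rsad2 (-1.24, adjusted p = 0.273), Iigp1 (-1.08, 0.242), Irgm2 (-0.61, 0.275) and Gbp6 (-0.53, 0.237). Without 1 array the count was 7 of 41 without control 1 (17.1%, against 6.02%), 1 of 41 without control 2 (2.44%, against 5.5%) and 2 of 41 without DEX + TE 3 (4.88%, against 5.29%). On the probe sets used, only Ifih1 had all arrays above control (0.39, 2.5% against 12.4%). Other probe sets of Irf8 (0.61, limma adjusted p = 0.301), Ifnar1 and Xaf1 that passed the filter did so too. Those of Ifnar1 and Xaf1 had control arrays below 50. Among the 4 lower members, the other probe set of Gbp6 (-0.25) and 1 other of Rsad2 (-0.26) overlapped with control. A further one of Rsad2 (-1.23) and that of Iigp1 (-1.35) had all DEX + TE arrays below control.

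Other genes of the pathway were counted from lists written for the pathway. Of 7 interferon genes, 5 were measured and only Ifnb1, which encodes interferon beta, passed the filter, with 25.8, 44.6 and 96.6 in control, 78.2, 58.8 and 65.8 in DEX and 60.1, 58.4 and 123 in DEX + TE. Of 26 signalling genes 20 were tested and 0 were called in any comparison. In DEX, 10 were lower and 10 higher by value, and 1 was lower and 1 higher by the unadjusted threshold (5.0% each, against 9.15% and 6.16% of all genes). The lower one was the receptor kinase Jak1, with 5363, 5266 and 5587 in control, 4245, 4259 and 4061 in DEX and 3838, 3979 and 3891 in DEX + TE (-0.37, adjusted p = 0.117). Both dexamethasone groups lay below control. Of the 20, only Jak1 had all DEX arrays below control (against 13.6% of all genes), and 2 had them all above (against 9.66%). The median of the signalling genes in DEX was 0.00.

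A second list held 54 further interferon-induced genes, of which 40 were tested. In DEX 30 were lower by value (75%, against 54.5% of all genes) and 10 higher (median -0.24), and 0 were called. Before adjustment 8 had p under 0.05 in the lower direction (20.0%, against 9.15%) and 1 in the higher (2.5%, against 6.16%). Cxcl9, a chemokine induced by interferon gamma, had 135, 286 and 219 in control, 97.4, 53.5 and 34.6 in DEX and 17.7, 41.6 and 68.0 in DEX + TE (-1.85 in DEX, adjusted p = 0.212). H2-K1, a class I heavy chain, had 2914, 3639 and 3701 in control, 2829.9, 2455 and 2530.4 in DEX and 2576, 3311 and 2652 in DEX + TE (-0.39). For Cxcl9 both dexamethasone groups lay below control, and for H2-K1 only DEX did. Tapbp, which loads peptides onto class I, and Psme1, a proteasome activator subunit, also had all DEX arrays below control, by -0.49 and -0.43. Of the 40, 10 had all DEX arrays below control (against 13.6% of all genes) and 1 had them all above (against 9.66%). In DEX + TE against DEX, 26 were higher by value (65%, against 57.4%) and 0 were called. All DEX + TE arrays lay above DEX in 8 (against 9.73%) and below in 1 (against 5.27%).

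Limma called 1 gene of this list higher and 1 lower in DEX + TE against control. Ifi27l2a, a small mitochondrial protein, rose from 161, 274 and 196 in control to 709, 1314 and 1041 in DEX + TE, with 476, 460.3 and 366 in DEX (2.27, adjusted p = 0.0299). The groups did not overlap and stood in the order control, DEX and DEX + TE. When single arrays were left out, this call remained only without DEX + TE 1 or control 2, and its adjusted p reached 0.1 without DEX + TE 3. It was also lost with no filter on low signal (0.0700), with only the 6 arrays compared (0.0951) and with a replicate block (0.0625). Pml, the protein of nuclear bodies, fell from 69.9, 54.9 and 62.7 in control to 27.6, 25.6 and 32.5 in DEX + TE, all below 50 there, so that control was at least 1.24-fold higher (adjusted p = 0.0431). That call was lost whichever of the 9 arrays was left out, and its adjusted p was 0.259 with a mean-variance trend, 0.123 with no filter, 0.0945 with the 6 arrays compared and 0.151 with a replicate block.

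Marker lists of other cells of muscle were read on the same arrays. In DEX 11 of 14 macrophage markers were lower by value (median -0.75, 0 called), and in DEX + TE 13 of 14 were higher than in DEX (median 0.72, 0 called). Their summed signal was 1944 to 3167 in control, 1764 to 2437 in DEX and 2717 to 3132 in DEX + TE, and none of the 14 was below 50 on all arrays. All 8 fibroblast markers were lower in DEX (median -0.99, 3 called lower, against 0.322% of all genes), with sums of 30921 to 46219 in control, 18672 to 22029 in DEX and 28277 to 30207 in DEX + TE. All 8 were higher in DEX + TE than in DEX (against 57.4% of all genes, median 0.57, 0 called). Of these, 6 had an unadjusted p under 0.05 (against 5.96%) and 7 had all DEX + TE arrays above DEX (against 9.73%). Of 8 T cell markers measured, 5 were below 50 on every array, Cd3d, Cd3e, Cd4, Cd2 and Cd5. The median of 10 endothelial markers was 0.08 in DEX.

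The muscle fiber markers, like those of fibroblasts and most of those of macrophages, had differences in the same directions as the set. All 12 were lower in DEX by value (against 54.5% of all genes, median -0.45, 0 called). Of the 12, 10 had an unadjusted p under 0.05 (against 9.15%) and 5 had all DEX arrays below control (against 13.6%). All 12 were higher in DEX + TE than in DEX (against 57.4%, median 0.19, 0 called). Their signals were the highest of the lists, with sums of 648950 to 879830 in control, 495490 to 619650 in DEX and 604990 to 661920 in DEX + TE. Neutrophil markers went the other way in DEX, where 3 of the 4 tested were higher (median 0.93, 0 called), S100a8 and S100a9 with all DEX arrays above control. The sums of the 8 measured were 277 to 478 in control, 558 to 950.1 in DEX and 555 to 1039 in DEX + TE. All 5 pan-leukocyte markers were lower in DEX (median -0.35), as were 3 of 4 dendritic cell markers (-0.35), 3 of 3 B cell markers (-0.42), 3 of 3 T cell markers (-1.47) and the 1 NK cell marker tested (-1.63), with 0 called. These lists were dim, and a level below 50 is only a bound. A marker passed the filter if 1 group alone reached 50, so a dim one could enter through the group where it was high. The direction of such markers is therefore partly set by the filter. The measured markers at 50 or more on every array were 1 of 5 pan-leukocyte, 1 of 6 dendritic cell, 2 of 5 B cell, 1 of 8 T cell and 0 of 5 NK cell. In whole muscle, fewer cells of a type and less RNA per cell cannot be told apart, and the part of these cells in the results for the set was not tested.

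The precision followed brightness. The median half-width of the 95% interval was 0.44 on the log2 scale for the 25 members with a mean of 200 or more and 1.06 for the 15 dimmer ones. A member in this design needed an unadjusted p of about 2.46e-04 to be called in DEX against control, the highest p among all called probe sets, and the lowest p of a member was 0.00284. Of the 43 members, 19 had further probe sets, of which 17 passed the filter. Of these 17, 13 had the sign of the brightest one in DEX against control. The number was 9 in DEX + TE against DEX and 12 in DEX + TE against control. Those of the other sign in DEX against control belonged to Ifnar1 (0.19), Ddx58 (0.91), Trim25 (0.25) and Xaf1 (1.14), all with overlapping arrays. Members of the Gbp, Irg, IFITM and OAS families are similar in sequence.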

How the data were processed

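RNA of the tibialis anterior (250 ng) was labelled with a 3′ IVT kit and hybridized to Affymetrix arrays, 1 per mouse. The deposited intensities are linear, 1 for each probe set on each array, and every array has a trimmed mean of 500 (2% removed at both ends). Robust Multi-array Average is the method named in the study, but its output would be log2 values with like distributions, so these are a different summary. Their software was not stated in the sources. The precision is limited by signal over background and by having 3 arrays per group.

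Of 45101 probe sets, 64 controls were left out. Symbols came from the array annotation (34945 probe sets with 1 symbol, 932 with several, 9160 with none). All 43 measured members were found by Entrez number in RefSeq. Intensities were taken to log2 with no offset, and 29269 probe sets with a group mean of log2 values at or above that of 50 were tested. Groups came from the sample labels, which name no batch. Same-numbered arrays did not deviate together (correlations from -0.021 to 0.048 in 9 pairs), so the numbers were not used as pairs. The labels call the arrays biological replicates.

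Limma 3.58.1 in R 4.3.3 fitted 3 group means to all 9 arrays, with Benjamini-Hochberg adjustment over all probe sets tested. A call needed an adjusted p under 0.05 and a log2 fold change of 0.6 or more in size. Rank Product (100 permutations within arrays) and the summaries were coded in numpy 2.4.6, pandas 2.3.3 and scipy 1.17.1 under Python 3.11.15, and figures in matplotlib 3.10.9. Both tests were tested on simulated data. A fold against a group below 50 on all its arrays is given as at least the fold over 50, since its level there is only a bound.

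Every member may be named. Values per array are given for the receptors, the transcription factors, the 6 highest and the 6 lowest log2 fold changes of each comparison, and others chosen after their values were seen. The members and lists were chosen with earlier results of these data known. Alternatives were other scalings, other filters, the 6 arrays compared only, a replicate block, a mean-variance trend and each array left out in turn. The counts at an unadjusted p were made under these settings after the data were seen.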

Additional observations from a re-analysis of the deposited data

How the results depend on the processing

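The count of members called was 0 in all 3 comparisons and both directions, and it stayed 0 under 16 alternatives, leaving out each array in turn included (lowest and highest count 0), with 1 exception. With a mean-variance trend in limma, 2 members were called lower in DEX than in control, Iigp1 (adjusted p = 0.0151) and Gbp6 (adjusted p = 0.0372), 5.0% of the 40 against 1.25% of all genes, and before adjustment 12 members had p under 0.05 in that direction (30.0%, against 11%). With arrays centred on their medians, the median member went in DEX + TE against DEX from 0.24 to -0.0092, in DEX against control from -0.21 to -0.10, where 3 members in place of 8 had an unadjusted p under 0.05 and a lower value, and in DEX + TE against control from -0.08 to -0.23. It moved the median of all probe sets to -0.20, 0.08 and -0.10 in the same order, and the median member differed from the median gene by 0.21, -0.17 and -0.11, as without centring. Without 1 array the median member ran from 0.17 to 0.31 in DEX + TE against DEX, from -0.36 to -0.14 in DEX against control and from -0.16 to 0.02 in DEX + TE against control. With the replicate number as a block, the paired fit called 0 members and left the medians at -0.21, 0.24 and -0.08. In that fit 6 members had an unadjusted p under 0.05 and a lower value in DEX (15%, against 8.45% of all genes). Deviations from the group means were also compared between groups, in 9 pairings of same-numbered arrays. In 3 of the 9 the best match in the other group had the same number, all of replicate 3, with correlations of at most 0.048. With no filter on low signal 43 members were tested and 0 were called. Of these, 5 had an unadjusted p under 0.05 and a lower value in DEX (11.6%, against 5.92% of all genes). Of the 24 members with values by rule, 14 kept their sign in every setting in DEX against control, 12 in DEX + TE against DEX and 16 in DEX + TE against control. Iigp1, Gbp3, Gbp6, Irgm2 and Ifngr1 were among those that kept it in DEX against control, with adjusted p from 0.0151 to 0.296 for Iigp1 and from 0.0372 to 0.278 for Gbp6. With 3 arrays per group and half-widths near 0.66 on the log2 scale, differences of the size of the median member were not detectable for a single gene.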
